A study of Mus musculus with 88 samples.

Results

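Transcripts of nucleolar and rRNA synthesis genes were measured in single mouse germinal vesicle (GV) oocytes from young and old females. The 9 listed genes were Ubtf and Rrn3, which act in RNA polymerase I transcription, Fbl, Nop56 and Nop58, which are core proteins of box C/D small nucleolar ribonucleoproteins (snoRNPs), Nolc1, a snoRNP chaperone, and the abundant nucleolar proteins Ncl, Npm1 and Npm3. Each gene was matched to a feature of the count table by the gene name that the study gives for the feature, or otherwise by the overlap of coordinates on the same strand with the GENCODE M21 annotation of GRCm38. Of the 9 genes, 8 had a feature of their own among the 38540 features. Npm3 lay inside a larger feature that also spans Mgea5, so its level was not measured.

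Oocytes came from C57BL/6Babr virgin females that were 12 weeks (young, 3 mice) or 44 to 54 weeks old (old, 7 mice), and every oocyte used here was a fully grown GV oocyte with no treatment or genetic change named. The 87 oocytes used were 42 young and 45 old. The study predicted from transcripts whether the chromatin of each oocyte was in the non-surrounded nucleolus (NSN) or the surrounded nucleolus (SN) configuration, which gave 30 young NSN, 12 young SN, 37 old NSN and 8 old SN oocytes. The chromatin itself was not examined. The paper holds that its classes likely do not match the true chromatin. It proposes that most old oocytes that should be SN carry an NSN-like transcriptome. NSN and SN below name the predicted class. The prediction used genes overexpressed in SN oocytes, measured in these same libraries, so each difference between SN and NSN oocytes below is a description, and whether any nucleolar gene was among the genes used is not given. The labels do not say which mouse an oocyte came from. Oocytes of 1 mouse are not independent, so each group counts as 1 sample and no test between groups is given.

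The nucleolus is where RNA polymerase I transcribes the ribosomal RNA genes and where the first steps of ribosome assembly take place. UBTF binds the rDNA and holds it open, RRN3 (TIF-IA) brings the polymerase to the promoter, snoRNPs guide chemical changes of the new rRNA, and nucleolin and nucleophosmin act in its processing and packaging. In the growing oocyte the nucleolus is active, whereas at the end of growth, with the change from NSN to SN, chromatin condenses around the nucleolus and transcription, that of rDNA included, shuts down. Oocytes store ribosomes and mRNAs for the embryo, so an mRNA in an SN oocyte can have been made earlier. Libraries were made from polyadenylated RNA, so pre-rRNA, rRNA and the proteins themselves were not measured.

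The total count of an oocyte lay between 1579196 and 8231046 for the young ones, with a median of 3002989, and between 976456 and 5448310 for the old ones, with a median of 2379884. Levels are given as CPM, which is counts per 1000000 counts of the oocyte. A CPM value is a share of the captured mRNA, so a change of total mRNA per oocyte cannot be seen in it. All 8 oocyte markers found, Gdf9, Bmp15, Zp1, Zp2, Zp3, Kit, Dppa3 and Nobox, had counts in each of the 87 oocytes, and their summed level had medians of 16813 CPM in young NSN, 19254 CPM in young SN, 16321 CPM in old NSN and 21212 CPM in old SN oocytes. The 12 granulosa markers found summed to 27.3 to 136 CPM over all oocytes. Most of this sum was Nr5a2 (24.2 to 26.99 CPM in the pooled groups) and Kitl (10.02 to 17.4 CPM), which had counts in all 87 oocytes, and Inha (4.91 to 7.04 CPM), which had counts in 75. Foxl2 and Amh were at or below 0.339 CPM in each pooled group. Of 7 blood and stromal markers, Hbb-bs, Hba-a1 and Col1a1 had no count, which allows up to 0.0122 CPM over all oocytes, and nearly all of the rest was Pecam1. The numbers in the oocyte names fell into 6 runs, 3 per age, and most numbers occurred both with and without a suffix A. What a run or the suffix stands for is not given, and since each run holds oocytes of 1 age, runs and age cannot be told apart.

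Ubtf encodes the upstream binding factor of RNA polymerase I. Its feature covers chr11:102304560-102319096 (GRCm38, minus strand). It was the measured gene with the widest differences between groups, so the 220 bases just before its start in oocytes are shown. This start is shared to the base with 1 of its 6 RefSeq starts. The stretch lies at chr11:102319097-102319316 (minus strand, GRCm38.p6 sequence from RefSeq), inside the span of a longer Ubtf isoform but outside annotated exons:
Ubtf: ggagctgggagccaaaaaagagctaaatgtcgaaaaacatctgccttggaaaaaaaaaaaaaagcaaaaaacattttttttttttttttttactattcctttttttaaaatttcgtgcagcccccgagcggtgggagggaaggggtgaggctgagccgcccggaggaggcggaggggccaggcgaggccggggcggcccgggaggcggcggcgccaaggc
The stretch runs from A and T runs into GC-rich sequence near the start. On both strands of the 300-base window around this start there was no match to CACGTG (found in 7.15% of 32851 such windows of mouse genes), to GGCGGG (35.3%) or to TATAAA (13.6%).

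Ubtf was higher in SN than in NSN oocytes at both ages. In young oocytes the lowest, median and highest levels were 2.56, 6.49 and 12.8 CPM in the 30 NSN oocytes and 6.57, 10.3 and 36.6 CPM in the 12 SN oocytes. All 12 young SN oocytes exceeded the NSN median, although the ranges overlapped. In the old NSN oocytes the lowest, median and highest were 2.02, 5.43 and 13.7 CPM. The 8 old SN oocytes had 8.69 (oocyte 12), 3.97 (15), 13.3 (26A), 29.4 (27A), 18.6 (28A), 20.4 (41), 29.8 (46) and 11.4 CPM (47). All old SN oocytes except oocyte 15 were above the old NSN median, and 27A, 28A, 41 and 46 were above every old NSN oocyte. From summed counts, Ubtf was at 6.37 CPM in young NSN, 12.5 CPM in young SN, 5.81 CPM in old NSN and 18.4 CPM in old SN oocytes. The SN over NSN ratio was 1.96-fold in young oocytes (log2 ratio 0.97, 95% interval 0.80 to 1.15) and 3.16-fold in old oocytes (log2 ratio 1.66, 1.47 to 1.86). These are exact binomial intervals that cover counting error alone, not the spread between oocytes or mice.

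Ubtf was higher in SN oocytes within each of the 6 runs of oocyte names. The log2 ratio was 0.70 in young 1 to 7 (1 SN oocyte), 0.70 in young 17 to 24 (5), 0.92 in young 33 to 39 (6), 0.38 in old 9 to 16 (2), 1.74 in old 25 to 31 (3) and 1.83 in old 41 to 48 (3). The intervals of young 1 to 7 (-0.19 to 1.48) and of old 9 to 16 (-0.34 to 1.03) included 0. Leaving out any one oocyte gave 0.81 to 1.12 in young and 1.52 to 1.76 in old oocytes. In the same direction, the summed level of the 8 oocyte markers was higher in SN oocytes, and in the old oocytes 7 of these 8 markers were higher by a log2 ratio of at least 0.322 (median log2 ratio over the 8, 0.46), against 19.2% of all features. In young oocytes 2 of the 8 were (median 0.30), against 9.14% of all features. The part of a general shift of the transcriptome in the Ubtf values was not tested.

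Between ages, Ubtf differed little in NSN oocytes (old over young log2 ratio -0.13, -0.30 to 0.04) and was 1.47-fold higher in old than in young SN oocytes (0.56, 0.36 to 0.76). Of the 8 old SN oocytes, 6 were above the young SN median of 10.3 CPM, and the ranges of both groups overlapped widely. The mean of the values was 13.6 ± 8.12 CPM (SD, 12 oocytes) in young SN and 16.96 ± 9.38 CPM (SD, 8 oocytes) in old SN oocytes. The log2 ratio of these means was 0.32, and without the 5 SN oocytes of young 17 to 24 the ratio of sums was 0.26, both short of the limit used below for a call (a log2 ratio of 0.322). Leaving out any one oocyte gave 0.41 to 0.72.

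**Figure D1:**
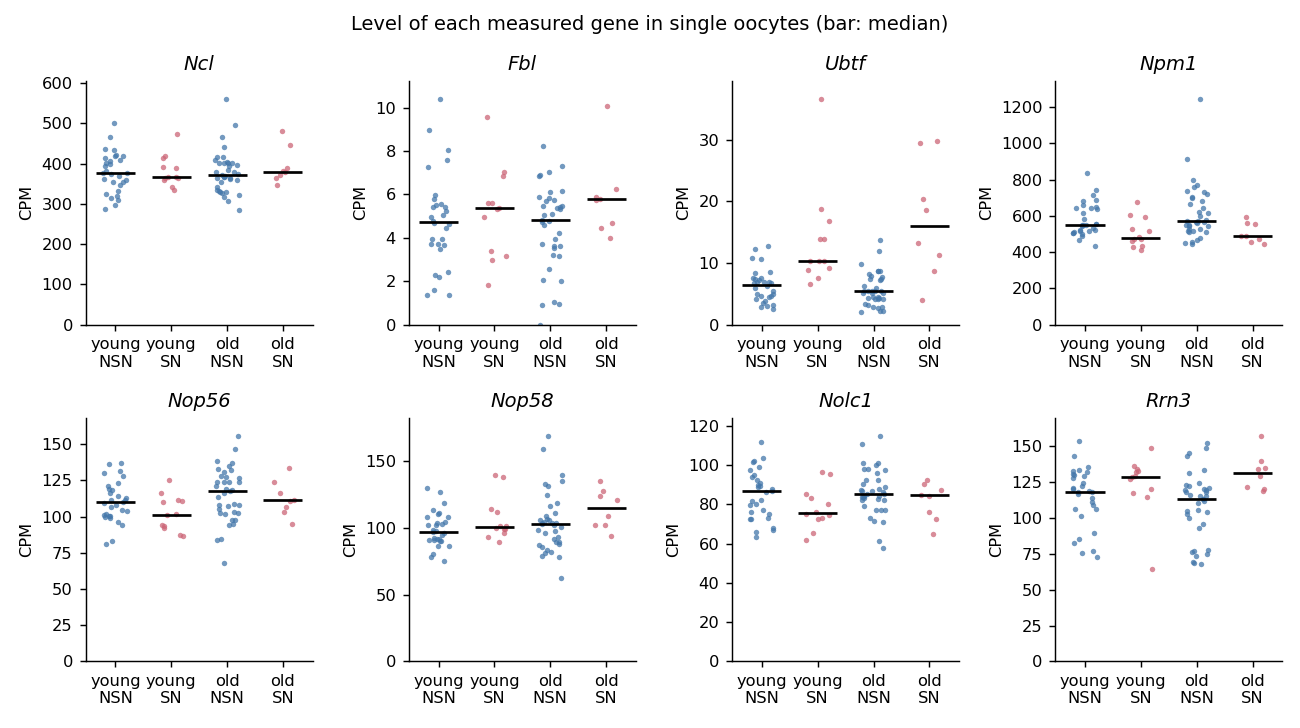
Level of each measured nucleolar gene (CPM, linear axis per gene) in each oocyte of the young NSN, young SN, old NSN and old SN groups, 1 point per oocyte with a bar at the median. The Ubtf medians go from 6.49 to 10.3 CPM (young) and from 5.43 to 15.98 CPM (old) from NSN to SN, whereas the Ncl medians lie between 367 and 380 CPM in every group.

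Rrn3 encodes the factor (TIF-IA) that links RNA polymerase I to the promoter-bound complex. Its feature covers chr16:13780309-13814840 (plus strand). Among the 7 genes with a RefSeq promoter window in the table used, it was the one that held CACGTG, a palindromic E-box, with 2 matches, 215 and 48 bases before the RefSeq start. Both are shown with their flanks, the motif in capitals, at chr16:13780472-13780501 and chr16:13780639-13780668 (GRCm38.p6, RefSeq, plus strand):
Rrn3 distal: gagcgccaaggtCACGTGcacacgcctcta
Rrn3 proximal: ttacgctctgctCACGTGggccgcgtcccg
The same motif was in 7.15% of all promoter windows. In oocytes the Rrn3 feature began 390 bases before the RefSeq start, so both matches lay inside the transcribed feature.

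Rrn3 levels were close between ages, and somewhat higher in SN oocytes. The lowest, median and highest levels were 72.8, 118 and 153 CPM in young NSN, 64.6, 129 and 148 CPM in young SN, and 67.7, 113 and 152 CPM in old NSN oocytes. The 8 old SN oocytes had 121 (oocyte 12), 135 (15), 134 (26A), 118 (27A), 120 (28A), 140 (41), 157 (46) and 129 CPM (47), all above the old NSN median. The SN over NSN log2 ratio was 0.27 in old (0.20 to 0.33) and 0.14 in young oocytes (0.09 to 0.18), and the old over young ratio over all oocytes was -0.05 (-0.09 to -0.02). SN oocytes were higher in 5 of 6 runs, with log2 ratios from 0.03 (young 17 to 24) to 0.43 (old 9 to 16). The exception was young 1 to 7, whose single SN oocyte, 1A, had the lowest Rrn3 level of all 42 young oocytes, 64.6 CPM.

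Much of the spread of Rrn3 lay between oocytes with and without the suffix A in 2 of the runs. In young 1 to 7, the 7 oocytes with the suffix had 64.6 to 89.3 CPM (median 76.7) and the 7 without it 109 to 132 CPM (median 119), so the sets did not overlap. In old 9 to 16, the 8 oocytes with the suffix had 67.7 to 106 CPM (median 74.2) and the 8 without it 104 to 135 CPM (median 122), which overlapped by a narrow margin. The log2 ratio, with over without the suffix, was -0.60 (-0.69 to -0.51) in young 1 to 7 and -0.65 (-0.76 to -0.54) in old 9 to 16. In the other runs it was -0.16 (young 17 to 24), -0.10 (young 33 to 39), -0.27 (old 41 to 48) and 0.13 (old 25 to 31). The comparison by suffix was chosen after the values had been seen.

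Of the 8 measured genes, Rrn3 in young 1 to 7 was the only case in which the sets with and without the suffix did not overlap. Among 9254 features with a mean of at least 10 CPM, the sets did not overlap for 4.93% in young 1 to 7, 0.573% in young 17 to 24, 0.324% in young 33 to 39, 1.88% in old 9 to 16, 1.82% in old 25 to 31 and 0.983% in old 41 to 48. Many other features moved with the suffix, and 658 of the 9254 (7.11%) fell by 0.322 or more on the log2 scale with the suffix both in young 1 to 7 and in old 9 to 16, as Rrn3 was. Within oocytes with the suffix, the Rrn3 SN over NSN log2 ratio was 0.26 in young and 0.28 in old oocytes, and within those without it 0.09 and 0.19.

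**Figure D2:**
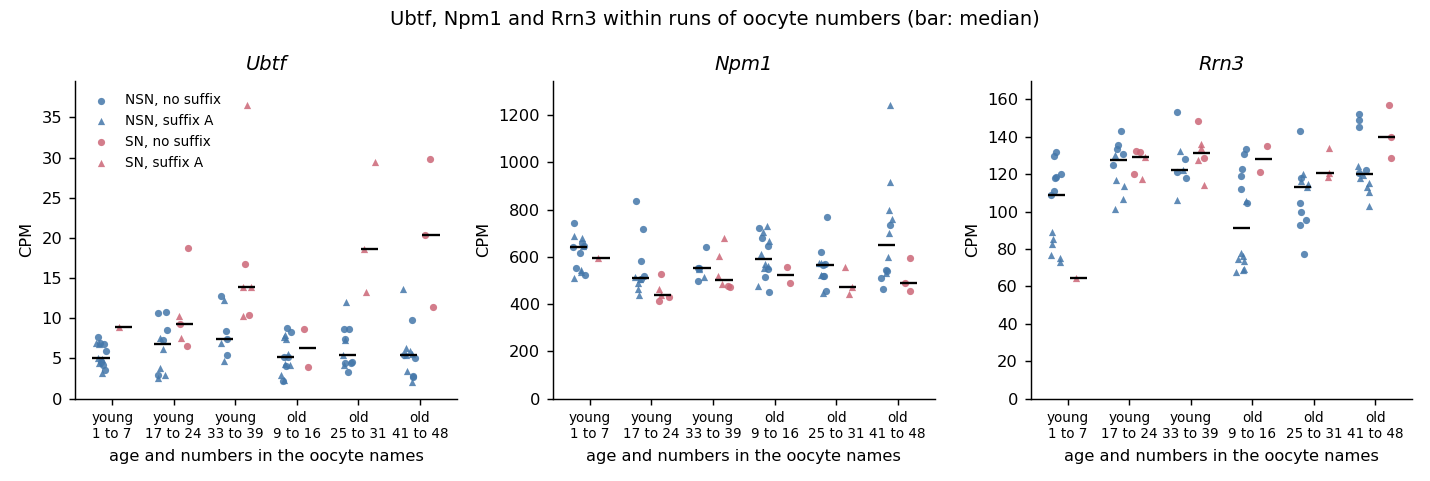
Levels of Ubtf, Npm1 and Rrn3 (CPM, linear axes from 0) in each oocyte, by age and run of oocyte numbers, with NSN in blue, SN in red, circles for names without a suffix, triangles for suffix A and bars at the medians. In young 1 to 7 the Rrn3 triangles lie at 64.6 to 89.3 CPM, below all circles at 109 to 132 CPM, and the highest Npm1 value, 1245 CPM, is a triangle in old 41 to 48.

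Fbl encodes fibrillarin, the methyltransferase of box C/D snoRNPs. Its feature covers chr7:28169699-28179269 (plus strand). Fbl was low, at 4.79 CPM in young NSN, 5.56 CPM in young SN, 4.50 CPM in old NSN and 6.03 CPM in old SN oocytes, from 455, 213, 420 and 120 counts. It was counted in 86 of the 87 oocytes, and old NSN oocyte 31 had no count, which allows up to 2.20 CPM. The 8 old SN oocytes ranged from 3.97 to 10.1 CPM with a median of 5.77 CPM, and the old NSN oocytes from 0 to 8.23 CPM, so that oocyte 27A, at 10.1 CPM, lay above every old NSN oocyte. The old SN over NSN log2 ratio was 0.42 (0.12 to 0.72), 5 of 8 SN oocytes being above the NSN median. The old over young ratio was -0.07 (-0.24 to 0.09).

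Counting of Fbl could be affected by near-identical sequence elsewhere. A transcript annotated to Tulp4 holds, in antisense, 690 bases of Fbl at 99.6% identity, and its feature held 14003 counts in the 88 oocytes. Reads were 100 bases long, and the stretch of 100 coding bases of Fbl (coding positions 308 to 407) that holds all 3 differences in the 674 aligned coding bases is shown, with differing bases in capitals:
Fbl: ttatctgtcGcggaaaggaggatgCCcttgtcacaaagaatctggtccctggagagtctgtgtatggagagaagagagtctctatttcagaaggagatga
Tulp4 copy: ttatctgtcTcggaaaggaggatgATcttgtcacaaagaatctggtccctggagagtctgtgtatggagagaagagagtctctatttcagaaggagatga
Within the aligned bases, a read that covers none of the 3 differing bases is the same for both loci. A processed pseudogene, Gm5812, matches 984 bases of Fbl at 96.85% identity and has no feature. Fbl levels are therefore uncertain. The Tulp4 feature had old over young and SN over NSN log2 ratios between -0.06 and 0.09.

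Nop56 and Nop58 encode the paired scaffold proteins of box C/D snoRNPs. Nop56 (chr2:130274353-130279313, plus strand) was at 110 CPM in young NSN, 104 CPM in young SN, 115 CPM in old NSN and 114 CPM in old SN oocytes. Its 8 old SN oocytes ranged from 94.7 to 133 CPM, inside the old NSN range of 68.2 to 156 CPM. Nop58 (chr1:59684882-59718674, plus strand) was at 99.6, 103, 106 and 115 CPM in the same order of groups. Its levels ranged from 75.4 to 130 CPM in young NSN, 89.7 to 139 CPM in young SN, 62.6 to 169 CPM in old NSN and 94.3 to 135 CPM in old SN oocytes. The old over young log2 ratio was 0.08 (0.05 to 0.12) for Nop56 and 0.09 (0.06 to 0.13) for Nop58, and the groups overlapped almost fully. In SN oocytes, 7 of the 8 old oocytes were above the young median for either gene, with log2 ratios of 0.13 (0.05 to 0.20) and 0.16 (0.08 to 0.23). Nop56 has 4 processed pseudogenes of similar sequence without a feature, among them AC122861.1 (732 bases at 99.3% identity). Whether reads of Nop56 were placed there was not tested.

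Nolc1 encodes NOPP140, which binds snoRNPs and RNA polymerase I. It covers chr19:46075807-46085538 (plus strand) and was at 84.6 CPM in young NSN, 80.3 CPM in young SN, 85.5 CPM in old NSN and 82.7 CPM in old SN oocytes. The old SN oocytes had 65.1 to 92.2 CPM, and the old NSN oocytes 57.8 to 115 CPM. The old over young ratio was 0.03 (-0.01 to 0.07), the smallest after that of Ncl and Ubtf. The SN over NSN ratio was -0.07 in young and -0.05 in old oocytes, with 2 of 12 and 3 of 8 SN oocytes above the NSN median.

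Ncl encodes nucleolin, a major RNA-binding protein of the nucleolus. Its feature covers chr1:86344397-86359668 (minus strand). Ncl varied least between the groups, at 380 CPM in young NSN, 375 CPM in young SN, 380 CPM in old NSN and 395 CPM in old SN oocytes. The lowest, median and highest values were 288, 378 and 500.5 CPM in young NSN and 286, 373 and 560.2 CPM in old NSN oocytes. The 8 old SN oocytes had 347 to 481 CPM. The old over young ratio was 0.01 (-0.01 to 0.03). Ncl overlaps C130036L24Rik on the opposite strand, which held 533 counts against 94629 for Ncl, and Nop56 overlaps Idh3b, with 3819 counts against 28326. Whether reads were counted by strand is not stated.

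Npm1 encodes nucleophosmin, a histone and ribosomal protein chaperone of the outer nucleolus. Its feature covers chr11:33150554-33163379 (minus strand). Npm1 was the most abundant gene of the set, and lower in SN than in NSN oocytes at both ages. The lowest, median and highest values were 437, 551 and 836 CPM in young NSN, 414, 479 and 678 CPM in young SN and 447, 570.4 and 1245 CPM in old NSN oocytes. The 8 old SN oocytes had 490 (oocyte 12), 559 (15), 558 (26A), 471 (27A), 445 (28A), 594 (41), 490 (46) and 457 CPM (47). One of the 8, oocyte 41, was above the old NSN median. The SN over NSN log2 ratio was -0.27 in young (-0.29 to -0.24) and -0.30 in old oocytes (-0.33 to -0.27), with SN lower in 6 of 6 runs. Within runs it lay between -0.06 (young 1 to 7) and -0.45 (old 41 to 48). In old 41 to 48 the 3 SN oocytes had no suffix. The 7 oocytes with suffix A, all NSN, were at 819 CPM, against 551 CPM without it. The ratio of this run therefore mixes configuration with suffix. In each other old run, too, the SN oocytes were all with or all without the suffix. On scaling by TMM or by median-of-ratios size factors, the old ratio was -0.34 or -0.32 and came past the limit of 0.322 on the log2 scale.

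Over all oocytes Npm1 was at 556 CPM in young and 612 CPM in old oocytes, a log2 ratio of 0.14 (0.12 to 0.15), the largest old over young ratio among the 8 genes. It depended on a subset of oocytes. In old 41 to 48, the 7 oocytes with suffix A had 531 to 1245 CPM (median 762) and the 8 without it 457 to 736 CPM (median 526). Without old 41 to 48 the ratio was 0.02, and without oocyte 42A alone, which had 1245 CPM, it was 0.09. Among oocytes with the suffix the old over young ratio was 0.34, and among those without it -0.07.

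Reads of Npm1 can also come from processed copies. Gm14681, a processed pseudogene on the X chromosome, had a feature with 8038 counts, against 144926 for Npm1. A stretch of 100 coding bases (coding positions 505 to 604 of Npm1) in which the copies have 0 differences, out of 11 in 417 aligned coding bases, is shown to illustrate which reads cannot be told apart:
Npm1 and Gm14681: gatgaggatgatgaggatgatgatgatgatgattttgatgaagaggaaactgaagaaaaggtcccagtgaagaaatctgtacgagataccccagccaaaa
The Gm14681 feature was 0.24 higher in old oocytes and fell by 0.21 and 0.33 from NSN to SN in young and old oocytes, on the log2 scale. Its counts were a small share of those of Npm1.

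Per kilobase of the longest principal GENCODE transcript, the order in young oocytes was Npm1 (340 CPM per kb), Nop58 (58.7), Nop56 (57.7), Ncl (46.2), Rrn3 (33.2), Nolc1 (22.9), Fbl (4.19) and Ubtf (1.73). Nop58 and Nop56 differed by less than the spread between oocytes, since their coefficients of variation were 14.2% and 12.8%. In old oocytes the same genes were at 375, 62.7, 61.1, 46.6, 32.0, 23.4, 3.98 and 1.71 CPM per kb, the same order. On this scale the mRNAs of the snoRNP scaffold proteins were more than 10-fold that of their partner Fbl, whose counts are uncertain as said above.

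Few of the genes differed past a fixed limit between ages. A gene was called past the limit when its log2 ratio of summed CPM was at least 0.322 in either direction, which is 25% above the lower level, among features with at least 10 CPM in either group and at least 3 counts in both. Over all oocytes 0 of the 6 genes that met the filter were past it (Fbl and Ubtf were below 10 CPM), where 2.54% of 9397 features were. In NSN oocytes it was 0 of 6 against 3.22% of 9324 features. In SN oocytes it was 1 of 7, Ubtf, against 12.3% of 9703 features. The median old over young log2 ratio of all 8 genes was 0.02 over all oocytes, 0.01 in NSN and 0.10 in SN oocytes, and the median over all features was -0.004 or -0.003 in each. With configuration, 1 of 7 genes, Ubtf, was past the limit in young oocytes, against 12.1% of 9586 features, and 1 of 7, again Ubtf, in old oocytes, against 32.3% of 9747 features. In both, Ubtf met the 10 CPM filter through the SN oocytes alone, where it was higher, so its place among the 7 genes depended on the difference counted. The median SN over NSN log2 ratio of the 8 genes was 0.01 in young and 0.09 in old oocytes.

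**Figure D3:**
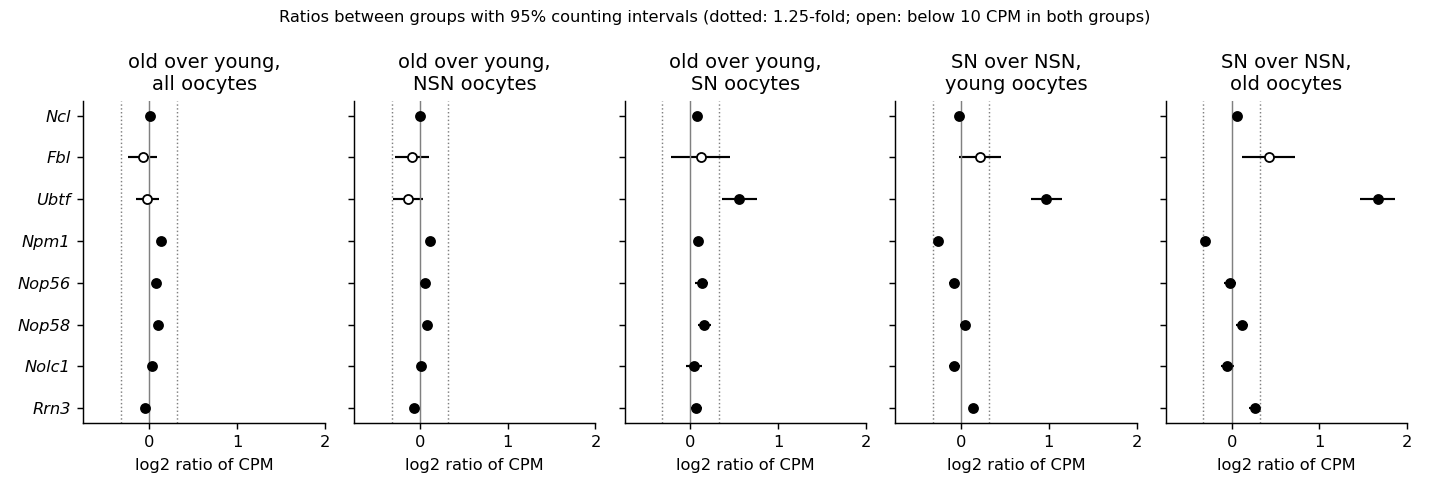
Log2 ratio of summed CPM for each measured gene in the 5 comparisons, with 95% counting intervals as bars and the limits of 0.322 in either direction as dotted lines and open circles for genes below 10 CPM in both groups. Ubtf lies at 0.97 and 1.66 for SN over NSN in young and old oocytes, Npm1 at -0.27 and -0.30, and the old over young values over all oocytes lie between -0.07 (Fbl) and 0.14 (Npm1).

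The spread between oocytes was compared between ages as the squared coefficient of variation (CV) of CPM less the part expected from counting. In young and old oocytes the CV so corrected was 65.4% and 76.2% for Ubtf, 35.2% and 28.3% for Fbl, 17.03% and 19.7% for Rrn3 and 16.5% and 24.2% for Npm1. It was 12.9% and 19.1% for Nop58, 11.5% and 13.8% for Nop56, 11.9% and 13.1% for Ncl and 13.2% and 11.3% for Nolc1. The squared CV was higher in old oocytes for 6 of the 8 genes, against 75.6% of 9392 features, a share near that of all features. The log2 ratio of the squared CVs was largest for Nop58 (1.12) and Npm1 (1.097), and was below 0 for Fbl (-0.64) and Nolc1 (-0.45). The median over all features was 0.47.

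In NSN oocytes the squared CV was again higher in old oocytes for 6 of 8 genes (76% of 9386 features). In SN oocytes, a comparison added after the values had been seen, it was higher for 1 of 8, Ncl, against 40.7% of 8637 features. Old SN oocytes were 8 and young SN oocytes 12. For Rrn3 the SD was 12.9 CPM over old SN and 20.7 CPM over young SN oocytes, the latter with oocyte 1A at 64.6 CPM. The direction for Fbl turned with the setting, since its spread was higher in old oocytes after thinning each oocyte to 900000 counts (squared CV 0.0748 in young and 0.132 in old oocytes) and by the variance of log2(CPM + 1) (0.312 and 0.435). The cause was not tested.

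**Figure D4:**
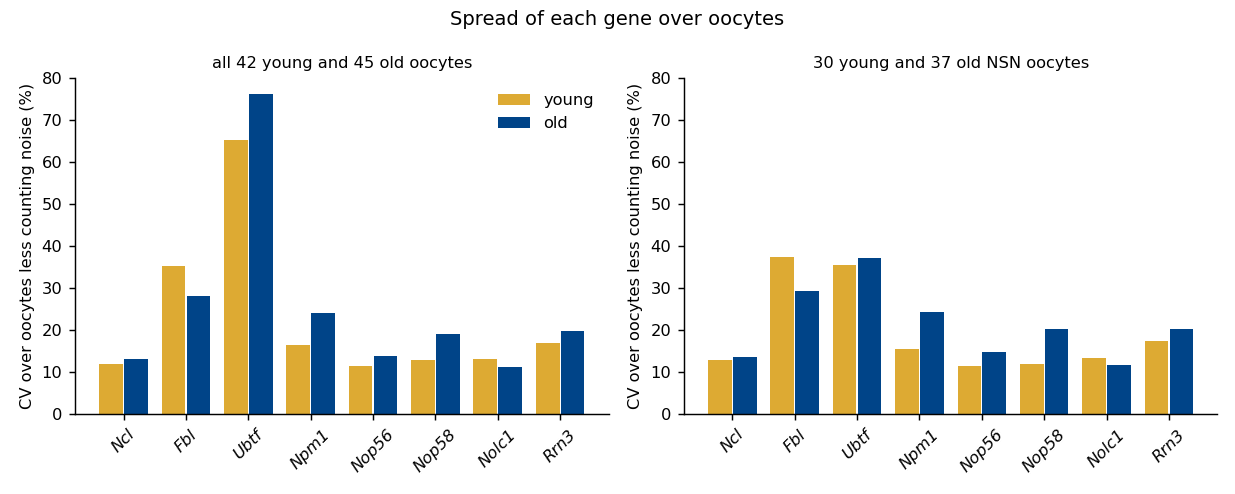
CV of CPM (percent, less counting noise) for each measured gene in young and in old oocytes. Npm1 goes from 16.5% to 24.2% and Nop58 from 12.9% to 19.1%, and Nolc1 from 13.2% to 11.3%.

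Levels of the 8 genes did not vary together across oocytes as a set. Over the 28 pairs the median Spearman correlation was -0.01 in the 30 young NSN oocytes (from -0.48 to 0.66) and 0.00 in the 37 old NSN oocytes (from -0.33 to 0.62). All pairs share libraries and total counts, and the correlations are descriptions. The highest pair at both ages was Ncl with Npm1, at 0.66 and 0.62. After removal of the mean of each run and suffix it was 0.69 and 0.47, and in old oocytes Npm1 with Nop58 was then higher (0.49). Ubtf and Rrn3, both factors of RNA polymerase I, were at 0.55 in young and 0.13 in old NSN oocytes (0.41 and 0.27 within run and suffix). Nop56 and Nop58, partners in the same particle, were at -0.19 and -0.06. Nop58 and Nolc1 gave the lowest value at both ages, -0.48 and -0.33. Within run and suffix this pair was at -0.49 and -0.18, and in old oocytes Npm1 with Rrn3 was then lowest (-0.42).

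**Figure D5:**
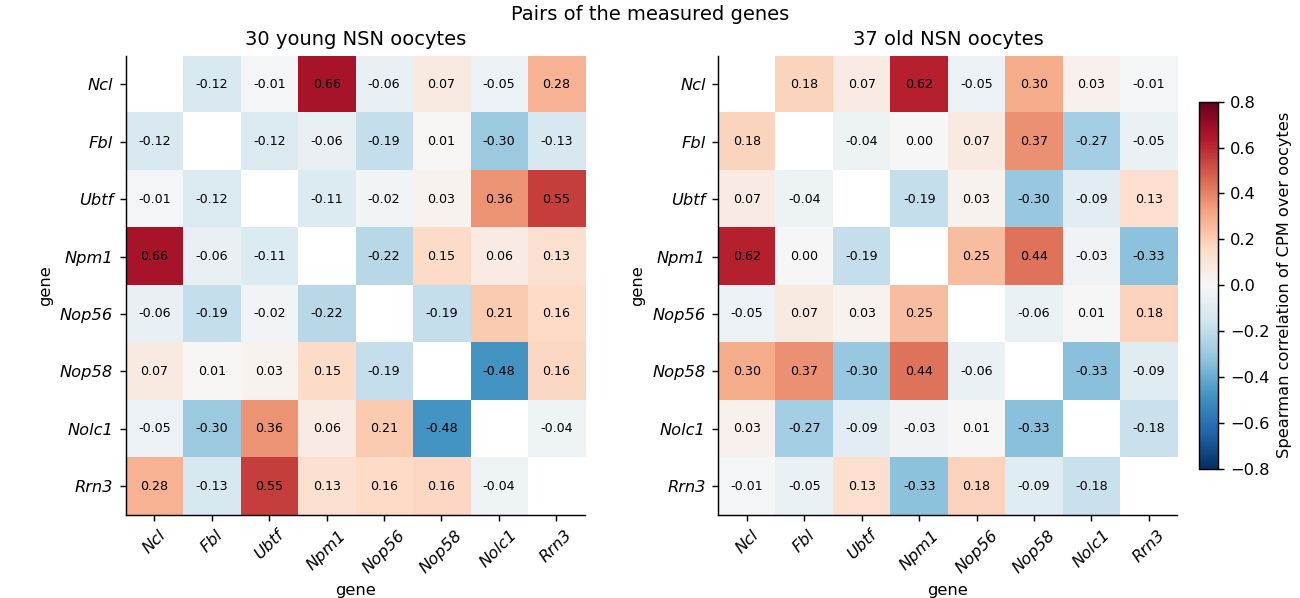
Spearman correlation of CPM for each pair of measured genes over 30 young NSN oocytes (left) and 37 old NSN oocytes (right), from blue (negative) to red (positive). Ncl with Npm1 is the deepest red in both panels (0.66 and 0.62), and Nop58 with Nolc1 the deepest blue in the left panel (-0.48).

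For each gene, the features most like it across NSN oocytes were named by the mean of the young and old correlations, among 9254 features. For Ncl they were Ppig (0.72), Ccdc18 (0.68) and Ssb (0.68), and for Npm1 its pseudogene Gm14681 (0.80), CT954323.1 (0.79) and Ssb (0.77). Thus Ssb, which encodes the La protein, was on both lists. Npm1 and Gm14681 hold stretches that reads cannot tell apart, so their features are not independent measurements. For Nolc1 they were Ubap2l (0.75) and a pair of features of D6Ertd527e (0.73 and 0.69). For Rrn3 they were Canx (0.76), Pls1 (0.73) and Cdv3 (0.72), but within run and suffix the young and old correlations were 0.39 and 0.44 for Canx, 0.39 and 0.26 for Pls1 and 0.45 and 0.39 for Cdv3. For Nop56 they were Cops6 (0.69), Xrcc1 (0.63) and D7Ertd443e (0.60), and for Nop58 Mcm9 (0.60), Trappc6b (0.57) and Vps35 (0.56). Within run and suffix the Trappc6b correlation in old oocytes was 0.24, from 0.55. The scarce genes had lower values, from 0.44 to 0.47 for Ubtf with Sumf1, Zfyve1 and Sf3b2, and from 0.44 to 0.51 for Fbl with Gm45659, 1700010D01Rik and Ndufa10. For Sf3b2 with Ubtf the old correlation was 0.22, and 0.14 within run and suffix.

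Between ages, no other gene of the pathway lists was past the limit over all oocytes. Of the RNA polymerase I machinery, 14 of 19 genes found met the filter and 0 were past the limit over all oocytes. The highest were Polr2k, a small subunit shared by the RNA polymerases (0.31, 0.26 to 0.35), and Taf1d, a subunit of the promoter selectivity factor (0.20). The lowest were Polr1b, the core subunit next in size to the largest (-0.15), and Polr2f, another shared subunit (-0.08). Of the other snoRNP proteins, 0 of 9 were past the limit, with Dkc1, the pseudouridine synthase, and Znhit6, a box C/D assembly factor, highest (both 0.16) and Znhit3 (-0.03) and Rrp9 (-0.01) lowest.

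For assembly of the small subunit, 0 of 27 were past the limit, from Utp18 (0.26) and Utp11 (0.18) down to Nol6 (-0.20) and Pdcd11 (-0.23). For the large subunit it was 0 of 24, from Rpf2 (0.26) and Brix1 (0.20) to Surf6 (-0.23) and Noc2l (-0.27). Of a list named for silencing and restraint of rDNA, 0 of 8 were past it. The list also holds Ercc6, which is known as an activator of RNA polymerase I transcription. Values ran from the histone methyltransferase Suv39h1 (0.06) and the demethylase Kdm2a (0.03) to Ercc6 (-0.12) and Kdm2b (-0.13). In NSN oocytes none of these 5 lists had a gene past the limit either. In SN oocytes 7 genes were past it, where 12.3% of all features were: 2 of 14 of the RNA polymerase I machinery, 2 of 11 snoRNP proteins, 1 of 27 for the small subunit, 1 of 24 for the large subunit and 1 of 9 for rDNA silencing. Higher in old SN oocytes were Coil (0.67), Maf1 (0.52), Krr1 (0.43), Polr1f (0.40) and Nufip1 (0.38), and lower were Noc2l (-0.45) and Polr2l (-0.35). All but Noc2l were named after their values had been seen. Maf1 met the 10 CPM filter through the old SN oocytes alone (10.6 CPM, against 7.44 CPM in young SN oocytes). The call for rDNA silencing therefore depended on the difference counted. Npm2, the oocyte nucleoplasmin, was at 690 CPM in young and 727 CPM in old oocytes (0.08).

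With configuration, more of these genes were past the limit in old than in young oocytes, as were features at large (32.3% and 12.1%). In young and old oocytes the counts were 2 and 5 of 14 for the RNA polymerase I machinery, 4 and 7 of 11 for snoRNP proteins, 0 and 4 of 27 for the small subunit and 2 and 7 of 24 for the large subunit. For rDNA silencing they were 1 of 8 and 2 of 9. They went in both directions: in old SN oocytes 2 polymerase genes were higher and 3 lower, and 4 snoRNP genes were higher and 3 lower. The following were picked after their values had been seen. In old oocytes Maf1, a repressor of RNA polymerase III transcription, was at 1.96 CPM in NSN and 10.6 CPM in SN oocytes (log2 ratio 2.44, 2.15 to 2.73). Coil, the scaffold of Cajal bodies, was at 6.24 and 20.9 CPM (1.75, 1.56 to 1.93), and Polr2k at 91.4 and 57.6 CPM (-0.67, -0.76 to -0.58). In old oocytes Maf1 and Coil met the 10 CPM filter through the SN oocytes alone. So did Ruvbl1, a snoRNP gene (7.87 CPM in NSN, 12.1 CPM in SN), and Surf6, for the large subunit (9.17 and 20.4 CPM). In young oocytes the same held for Coil (7.04 and 13.2 CPM) and Ruvbl1 (8.48 and 11.3 CPM). All were past the limit, so these calls depended on the difference counted. In young oocytes Maf1 was at 3.04 CPM in NSN and 7.44 CPM in SN oocytes, below the filter.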

How the data were processed

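Single GV oocytes were lysed, mRNA was captured on oligo-dT beads, and cDNA was made by Smart-seq2 with 18 cycles of amplification and sequenced as single-end 100 bp reads without molecular identifiers. Reads were trimmed (Trim Galore 0.4.4) and aligned to GRCm38 with HiSat2 2.1.0. The authors deposited raw counts of primary alignments over features of an oocyte transcriptome, and the counting program and its strand setting are not given in the sources used here. The table also held 1 old oocyte that the study left out and that has no configuration. It entered no comparison. No column of other samples was used.

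Features were matched to genes by the study's names or by a Jaccard overlap of at least 0.3 with GENCODE M21 genes. The genes and the lists of other genes were chosen with earlier results of these data known. Counts were summed per group and divided by summed totals (CPM), and log2 ratios were given with exact binomial intervals. Intervals and floors (3 counts) cover counting error only, since PCR copies are not independent molecules. Of each other list, the genes with the 2 highest and 2 lowest old over young ratios at 10 CPM or more were named, and for each measured gene the 3 features most like it. Alternatives were TMM (edgeR 4.0.16, R 4.3.3), median-of-ratios size factors, thinning to 900000 counts, means over oocytes, other fold limits and filters, all 88 oocytes, and leaving out oocytes, runs or suffixes. Other steps used Python 3.11.15 (numpy 2.4.6, pandas 2.3.3, scipy 1.17.1, matplotlib 3.10.9), and functions were checked on simulated counts. A comparison of suffixes within runs, correlations within run and suffix and the spread in SN oocytes were added after values had been seen.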

Additional observations from a re-analysis of the deposited data

Results flagged for a closer look

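The Fbl level of old SN oocyte 27A, 10.1 CPM, stood apart from the other 7 old SN oocytes, which had 3.97 to 6.25 CPM. It rested on 24 counts. The limit for such gaps is a 95% one, which by its construction flags about 1 in 20 groups. In the old oocyte without a configuration, which entered no comparison, Nop56 was at 249.7 CPM, above all 87 other oocytes, whose highest values were 137 CPM in young and 156 CPM in old oocytes.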

How the results depend on the processing

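No paired analysis was possible because the labels tie no oocyte of one group to an oocyte of another, and no test was made. Of 165 alternative values of the counts and medians over the 8 genes, 145 stayed within the limits set (1.5 times for a count, 0.1 for a median). The others were these. The number of genes past the limit, old over young, was 1 over all oocytes with suffix A or at a 1.1-fold limit, and 1 in NSN oocytes with suffix A, where without the suffix the median ratio of the 8 genes was -0.10. In SN oocytes it was 0 by the mean over oocytes, without young 17 to 24 or at 1.5-fold, and 2 at 1.1-fold. For SN over NSN in young oocytes it was 2 without the suffix or at 1.1-fold. In old oocytes it was 2 with TMM, median-of-ratios factors, suffix A, no filter, or without old 25 to 31 or old 9 to 16, 3 at 1.1-fold, and 1 to 2 when any one oocyte was left out, and without old 41 to 48 the median was 0.20. In SN oocytes 1 gene had a higher squared CV in old oocytes. Of 560 alternative ratios of single genes, 398 lay within the counting interval of the reported value, and 69 had the other sign, none of them of a reported size above 0.215. Of the 100 that moved by 0.1 or more, 67 were of Ubtf or Fbl, the genes with the fewest counts. The cause was not tested. Scaling moved the median of all features by at most 0.04.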

Other observations

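The other genes of the old oocyte without a configuration were as follows. Ncl was at 236 CPM, below all 87 other oocytes (lowest 286 CPM), whereas Npm1 was at 444 CPM, Nop58 at 105 CPM, Rrn3 at 98.4 CPM, Nolc1 at 70.5 CPM, Ubtf at 13.9 CPM and Fbl at 4.18 CPM. With this oocyte included, the Npm1 old over young log2 ratio was 0.13.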
